A study of Mus musculus with 6 samples.

Results

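The 10 genes described here drive or mark cell division: the G1 cyclins Ccnd1 (ENSMUSG00000070348) and Ccnd2 (ENSMUSG00000000184), the replication genes Pcna (ENSMUSG00000027342), Mcm2 (ENSMUSG00000002870) and Cdc45 (ENSMUSG00000000028), the later cyclins Ccna2 (ENSMUSG00000027715) and Ccnb1 (ENSMUSG00000041431), their kinase Cdk1 (ENSMUSG00000019942), the topoisomerase gene Top2a (ENSMUSG00000020914), and the proliferation marker Mki67 (ENSMUSG00000031004). They were taken by gene identifier, not by their values, and are 10 of the 48505 genes listed, with 2368 of the 5193362 windows into which the genes were divided. The windows start mostly 25 nucleotides apart, and each value is the signal of an anti-m6A immunoprecipitation (IP) in 1 window of 1 library. The antibody pulls down RNA fragments that carry N6-methyladenosine (m6A), adenosine with a methyl group on its base.

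Both groups were pooled fetal hearts, male and female together, of wild-type FVB/NJ mice. The dams were 10 weeks old, and the study used 14 of them. From gestational day 5, dams of the nano-TiO2 group breathed an aerosol of titanium dioxide nanoparticles in a whole-body chamber at a target of 12 mg/m3, for 360 minutes per day on 6 separate days within 8 days. Sham dams breathed filtered room air, and fetal hearts of both groups were collected on gestational day 15. There were 3 libraries per group. How many hearts or litters entered a pool, and whether pools shared litters, was not stated in the sources used here, so p-values measure the spread between these libraries. Input libraries were not used here, so the amount of a transcript and the share of it that carries m6A cannot be told apart. In pooled hearts, fewer dividing cells and less RNA per dividing cell cannot be told apart either.

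A dividing cell passes from G1 through S phase, when DNA is copied, to G2 and mitosis. D-type cyclins act with Cdk4 and Cdk6 in G1 to release E2F factors, which switch on replication genes such as Mcm2, Cdc45 and Pcna. Cyclin A2, cyclin B1 and Cdk1 then carry the cell through G2 into mitosis. Cardiac muscle cells of the fetal heart still divide, and Ccnd1 and Ccnd2 are the D-type cyclins best known from cardiac muscle growth. Genes of G2 and mitosis are classically controlled through CCAAT boxes and the cell cycle genes homology region (CHR), and genes of S phase through E2F sites.

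The 250 bases before the start of Mki67, Top2a and Cdk1 are shown because these are the genes with a promoter entry whose IP level passed the test below, the first pair higher after nano-TiO2 and Cdk1 lower. The sequences are RefSeq's for GRCm38.p6, all on the minus strand, at chr7:135716380-135716629 for Mki67, chr11:99024190-99024439 for Top2a and chr10:69352913-69353162 for Cdk1. Capitals mark CCAAT boxes (CCAAT), CHR elements (TTTGAA or TTCGAA) and E2F sites (TTTCCCGC, TTTGGCGC, TTTCGCGC or TTTGCCGC), searched on both strands, so that ATTGG is a CCAAT box on the other strand.
Mki67: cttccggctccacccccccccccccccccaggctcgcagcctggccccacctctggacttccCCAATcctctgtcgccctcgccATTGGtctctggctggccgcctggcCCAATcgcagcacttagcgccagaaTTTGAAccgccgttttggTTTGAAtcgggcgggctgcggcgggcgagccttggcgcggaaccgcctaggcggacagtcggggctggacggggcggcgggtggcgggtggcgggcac
Top2a: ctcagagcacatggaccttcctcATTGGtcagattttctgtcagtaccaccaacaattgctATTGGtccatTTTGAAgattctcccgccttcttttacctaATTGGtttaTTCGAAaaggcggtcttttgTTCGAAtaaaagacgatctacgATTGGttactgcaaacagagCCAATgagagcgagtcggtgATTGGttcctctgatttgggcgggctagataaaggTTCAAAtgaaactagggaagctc
Cdk1: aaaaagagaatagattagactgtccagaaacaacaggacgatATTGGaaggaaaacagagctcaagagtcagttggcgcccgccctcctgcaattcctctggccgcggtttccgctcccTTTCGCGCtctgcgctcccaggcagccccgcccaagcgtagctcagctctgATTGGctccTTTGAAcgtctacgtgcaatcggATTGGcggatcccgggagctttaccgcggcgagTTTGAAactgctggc
Mki67 held 3 CCAAT boxes and 2 CHR elements, Top2a held 6 and 4, and Cdk1 held 3 and 2 with 1 E2F site. Of the 10 genes, 7 had an entry, and Ccna2, Ccnd1 and Ccnd2 had none. A CCAAT box was found in 7 of these 7 promoters, against 33.8% of all 32851 promoters of the same length. A CHR element was found in 5 of 7, against 17.1%, and an E2F site in 1 of 7, against 1.86%. The matches did not sort by phase: Ccnb1 had 0 CHR elements, and the replication genes Mcm2 and Cdc45 had 1 each. Pcna, Mcm2 and Cdc45 each had 0 E2F sites. These matches describe the sequence only.

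How windows were counted was not stated in the sources used here, so a read may count in more than 1 window. Summed over all windows, libraries held 20205024 to 31523675 reads. The 10 genes took up 14605 to 31967 of them per library, which was 0.117% ± 0.0142 of reads after nano-TiO2 and 0.0679% ± 0.00555 in sham (SD, n = 3 each; exact permutation test, two-sided p = 0.1, the smallest that 3 against 3 allows). The 4 most-read genes of the whole table took 13.6% ± 5.09 of reads after nano-TiO2 and 25.95% ± 8.08 in sham. A scaling that leaves these 4 genes out is given further on, and any other part of theirs in the results below was not tested. Outside those 4 genes, the 10 cell cycle genes held 0.135% ± 0.00835 and 0.0921% ± 0.00804 of reads. Scaled to equal library totals, the median log2 change, nano-TiO2 minus sham, was 0.607 for the 10 genes and 0.613 over all genes tested. With equal totals outside the 4 genes, it was 0.381 and 0.391. Ccnd2 alone went from a mean of 3617 reads in sham to 8526 after nano-TiO2, so the shares are not read as a shift of the 10 genes as a set. No table given here pairs these identifiers with symbols. The 71 other cell cycle genes and 39 cell type markers listed for this work were therefore not used here, and the heart label was not checked against markers. The symbols of the 10 genes came with the list of identifiers.

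In the deposited normalized table, reads are scaled by 1 size factor for each library. The IP level of a gene is the sum of its normalized windows, and changes are log2(sum + 1), nano-TiO2 minus sham, tested with limma over all genes with a mean of at least 10, with Benjamini-Hochberg adjustment and a threshold of 0.05. The 10 genes all passed that filter. By IP level, 4 of the 10 rose (Ccnd2, Mki67, Top2a and Ccna2) and 1 fell (Cdk1). Over all 18566 genes tested, 24% rose and 12% fell. The groups did not overlap for 5 of the 10, against 49.5% of all genes tested. The median change of the 10 genes was 0.11, against 0.13 over all genes. The plot of levels by library shows these values beside those of the adjusted table described further on.

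**Figure D1:**
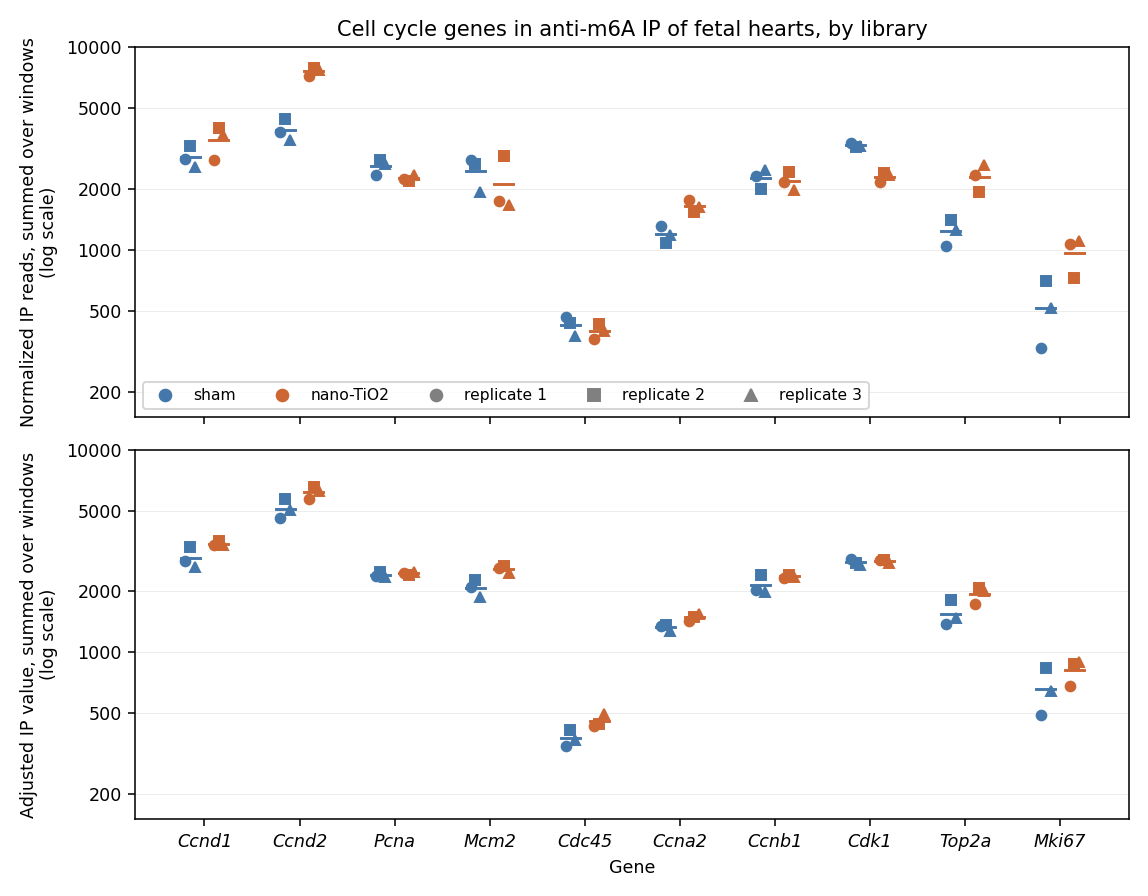
Each gene's IP level by library, on log axes, as normalized reads summed over windows (top) and as adjusted values summed over windows (bottom). Points are libraries, with a marker shape per replicate number, and bars are group means of 3 libraries; in the top panel Ccnd2, Top2a, Mki67 and Ccna2 lie higher after nano-TiO2 and Cdk1 lower, without overlap, and in the bottom panel the Cdk1 values lie between 2700 and 2888.

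Of the G1 cyclins, Ccnd2 rose and Ccnd1 did not pass the test. Ccnd2, a D-type cyclin expressed in the developing heart, measured 3821, 4409 and 3486 normalized reads in sham replicates 1 to 3 and 7235, 7884 and 7705 after nano-TiO2. The lowest nano-TiO2 library lay far above the highest sham library. The change was 0.97 ± 0.14 (log2, SE), with limma's adjusted p = 0.0014, a mean 1.95 times that of sham. Ccnd1, the cyclin best known from growth factor responses, measured 2807, 3265 and 2567 in sham and 2777, 4009 and 3701 after nano-TiO2. Nano-TiO2 replicate 1 lay inside the sham range, and the change of 0.27 ± 0.17 had an adjusted p of 0.257. Within each library, the summed level of Ccnd2 was 1.36, 1.35 and 1.36 times that of Ccnd1 in sham and 2.61, 1.97 and 2.08 times after nano-TiO2. The ratio within a library does not depend on the size factor, and its groups did not overlap. The trend on windows per gene, described further on, was not removed from it, and Ccnd2 had 376 windows and Ccnd1 188. With that trend removed, the changes in IP level were 0.21 for Ccnd2 and -0.08 for Ccnd1, neither called. In the adjusted table, described further on, the same ratio was 1.63, 1.73 and 1.91 in sham and 1.69, 1.85 and 1.84 after nano-TiO2, with overlap.

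None of the replication genes passed the test. Pcna, the sliding clamp that holds DNA polymerase on its template, measured 2342, 2794 and 2645 in sham and 2239.5, 2199 and 2351 after nano-TiO2. Its groups overlapped narrowly, and the change was -0.19 ± 0.13 (limma's adjusted p = 0.278). Mcm2, a subunit of the replicative helicase, measured 2786, 2662 and 1943 in sham and 1743, 2908 and 1674 after nano-TiO2. Nano-TiO2 replicate 2 was the highest of all 6 libraries and the other nano-TiO2 libraries the lowest, with a change of -0.25 ± 0.24 (adjusted p = 0.434). Cdc45, which joins the helicase at origins as they fire, measured 466, 435 and 376 in sham and 363, 429 and 398 after nano-TiO2. Its groups overlapped in part, with 2 sham libraries above every nano-TiO2 library, and the change was -0.10 ± 0.16 (adjusted p = 0.660). Equal library totals turned the sign of all 3, so no direction is given for them.

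The genes of S phase, G2 and mitosis did not move as 1 group: Ccna2, Top2a and Mki67 rose, Cdk1 fell and Ccnb1 did not pass the test. Ccna2, the cyclin of S phase and G2, measured 1313, 1084 and 1181 in sham and 1757, 1539 and 1628 after nano-TiO2. The groups did not overlap, and it rose by 0.46 ± 0.14 (limma's adjusted p = 0.029). Ccnb1, the cyclin that takes cells into mitosis, measured 2311, 2009 and 2488 in sham and 2164, 2438 and 1976 after nano-TiO2. Its groups covered nearly the same range, with a change of -0.05 ± 0.15 (adjusted p = 0.820). Equal library totals turned its sign too, to 0.45, so no direction is given.

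Cdk1, the kinase partner of both cyclins, was the member that fell. It measured 3381, 3212 and 3276 in sham and 2164, 2388 and 2345 after nano-TiO2. Each group covered a narrow range, and no value of one came near the other. The change was -0.52 ± 0.12 (limma's adjusted p = 0.011), a sham mean 1.43 times that of nano-TiO2. Cdk1 kept its sign under the scalings tried and lost its call under 3 of them, as given below.

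Top2a, which untangles DNA before chromosomes part, measured 1044, 1401 and 1261 in sham and 2354, 1932 and 2620 after nano-TiO2. It rose by 0.90 ± 0.17 (limma's adjusted p = 0.0044), a mean 1.86 times that of sham, without overlap. Mki67, whose Ki-67 protein coats mitotic chromosomes and is the usual stain for dividing cells, measured 327, 703 and 516 in sham and 1068, 727 and 1112 after nano-TiO2. It rose by 0.95 ± 0.28 (adjusted p = 0.028), but sham replicate 2 and nano-TiO2 replicate 2 lay close together, at 703 and 727.

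Ratios of summed levels within a library depend on the size of both genes and are compared here only across libraries. Top2a was 0.309, 0.436 and 0.385 times Cdk1 in sham and 1.09, 0.809 and 1.12 times after nano-TiO2. Ccnd2 was 1.13, 1.37 and 1.06 times Cdk1 in sham and 3.34, 3.30 and 3.29 times after nano-TiO2. Ccna2 was 0.388, 0.338 and 0.361 times Cdk1 in sham and 0.812, 0.644 and 0.694 times after nano-TiO2. None of these ratios overlapped between groups in the normalized table. Ccnb1 over Cdk1 averaged 0.689 ± 0.0673 in sham and 0.955 ± 0.0974 after nano-TiO2, also without overlap. Mcm2 over Pcna overlapped, at 0.959 ± 0.227 and 0.938 ± 0.335 (SD, n = 3 each). In the adjusted table, Top2a, Ccnd2 and Ccnb1 over Cdk1 all overlapped between groups, while Ccna2 over Cdk1 did not, at 0.478 ± 0.0153 in sham and 0.529 ± 0.0287 after nano-TiO2. Mcm2 over Pcna did not overlap there either, at 0.862 ± 0.0616 and 1.05 ± 0.0538. Ratios between other genes were not computed, and the trend on windows per gene was not removed, so nothing particular to these pairs is read from them.

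Per window, which sets genes of different size side by side, the order of normalized levels also differed between groups. In sham, Pcna stood highest at 27.0 ± 2.40 normalized reads per window, followed by Cdk1 at 16.7 ± 0.433, Ccnd1 at 15.3 ± 1.89, Ccnb1 at 13.5 ± 1.44, Ccnd2 at 10.4 ± 1.24, Mcm2 at 8.86 ± 1.64 and Ccna2 at 7.32 ± 0.705. Top2a at 3.43 ± 0.499, Cdc45 at 3.04 ± 0.327 and Mki67 at 1.28 ± 0.467 were lowest. After nano-TiO2, Ccnd2 at 20.2 ± 0.891 came next to Pcna at 23.6 ± 0.820, and Cdk1 at 11.7 ± 0.605 came after Ccnb1 at 13.1 ± 1.38. Ccnd1 at 18.6 ± 3.41 lay between Ccnd2 and Ccnb1, and Ccna2 at 10.1 ± 0.674, Mcm2 at 7.58 ± 2.49, Top2a at 6.39 ± 0.963, Cdc45 at 2.83 ± 0.239 and Mki67 at 2.41 ± 0.525 followed. Neighbours closer than the larger of their SDs were Cdk1 and Ccnd1, Ccnd1 and Ccnb1, Ccnd2 and Mcm2, Mcm2 and Ccna2, and Top2a and Cdc45 in sham. After nano-TiO2 they were Ccnd2 and Ccnd1, Ccnb1 and Cdk1, Ccna2 and Mcm2, Mcm2 and Top2a, and Cdc45 and Mki67. Many windows held almost no reads: 49 of the 197 of Cdk1 and 132 of the 278 of Mcm2 had a mean of at least 1, against 147 of the 188 of Ccnd1. Over windows with a mean of at least 1, Cdk1 stood highest, at 66.8 ± 1.72 in sham and 46.4 ± 2.37 after nano-TiO2, and Ccnd2 at 14.4 ± 1.75 and 28.1 ± 1.22.

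**Figure D2:**
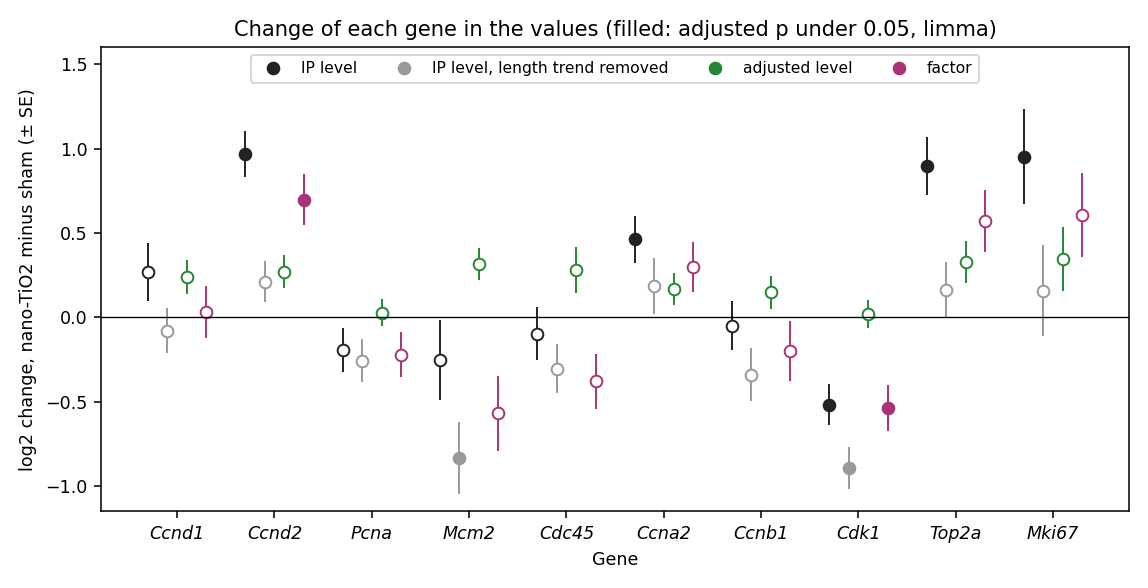
Change of each gene (log2, nano-TiO2 minus sham, ± SE from limma, 3 libraries per group) in IP level, in IP level with the trend on windows per gene removed, in the adjusted level, and in the factor between both tables. Filled points have an adjusted p under 0.05; Cdk1 is filled below 0 in IP level with and without the trend and in the factor, Ccnd2 is filled above 0 in IP level and the factor, and no adjusted level is filled.

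The change in IP level went with the number of windows of a gene across the whole table. Split into 5 groups of equal size by windows per gene, all tested genes had median changes of -0.48, -0.09, 0.11, 0.34 and 0.81 from the fewest windows to the most. The share that rose was 4.58% among genes with the fewest windows and 55.5% among those with the most. Mki67 with 402 windows, Ccnd2 with 376 and Top2a with 360 lay in the group with the most windows, as did Mcm2 with 278. Mki67, Ccnd2 and Top2a lay close to that group's median. By listed windows, with or without signal, Mcm2 and Cdk1 lay below the middle 50% of genes of their groups. Ccna2, with 163 windows, rose by 0.46 and lay inside the middle 50% of its group, which had a median of 0.11 and reached up to 0.59.

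**Figure D3:**
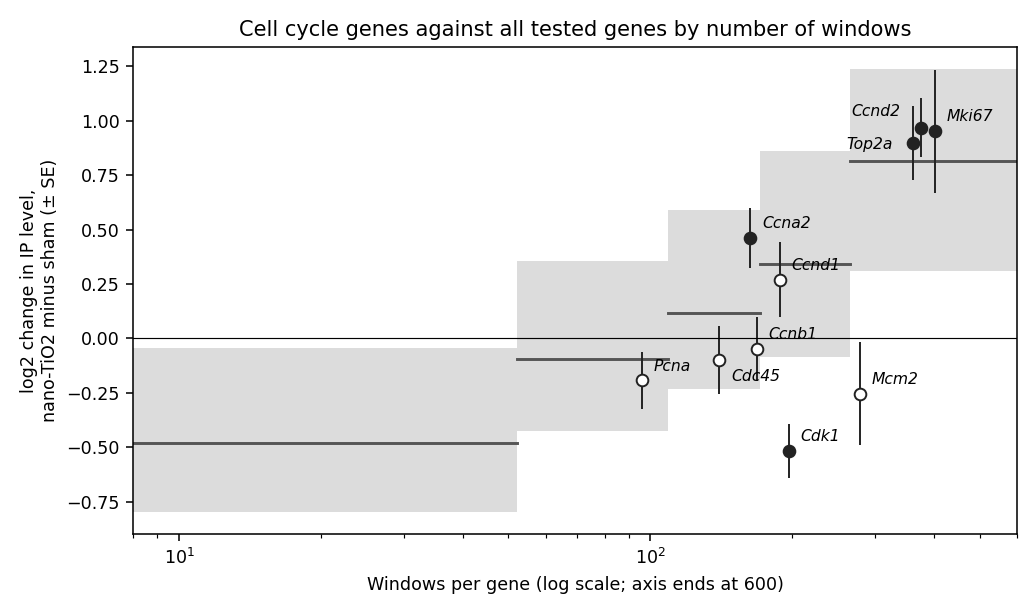
Change in IP level (log2, nano-TiO2 minus sham, ± SE) against all listed windows per gene on a log axis, filled where the adjusted p was under 0.05. Lines are the medians and grey boxes the middle 50% of all tested genes in 5 groups of equal size; Mki67, Ccnd2 and Top2a lie in the box of the genes with the most windows, Cdk1 and Mcm2 below theirs.

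With that trend removed from each library, none of the 4 rises passed the test. The changes were 0.21 ± 0.12 for Ccnd2 (limma's adjusted p = 0.224), 0.19 ± 0.17 for Ccna2 (0.426), 0.16 ± 0.16 for Top2a (0.482) and 0.16 ± 0.27 for Mki67 (0.691). With every listed window counted, Cdk1 was then lower by more, at -0.89 ± 0.12 (adjusted p = 0.0061). Mcm2 fell too, at -0.84 ± 0.21 (0.025). Over all genes, 25.2% were called with the trend removed. Of the listed windows, 49 of 197 in Cdk1 and 132 of 278 in Mcm2 had a mean of at least 1. Before the trend was removed, Cdk1 changed by -0.52. Its group by listed windows, with 171 to 265, had a median change of 0.34, and the group with 8 to 52 had -0.48. Windows with signal were not counted for the genes of these groups, so the 49 of Cdk1 cannot be placed among them. Whether either fall holds when only windows with signal are counted was not tested. The longest run of windows without a mean of at least 1 spanned 66 windows in Cdk1 and 70 in Mcm2. Whether the transcripts of these hearts cover those windows was not tested. What makes the change follow the number of windows was not tested.

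The scaling of libraries also moved single calls. With equal library totals, which shifted the median change of all genes to 0.61 and called 44% of them, Cdk1 was at -0.02 (limma's adjusted p = 0.939) while Ccnd1 rose with the 4 genes above. With equal totals outside the 4 most-read genes, the median was 0.39 and 39.4% of genes were called, and Cdk1 was at -0.25 (0.163). With quantile normalization, 31.9% of genes were called, and Cdk1 was at -0.29 (0.090). Under these 3 scalings 5 genes rose and 0 fell, against 4 and 1 with the deposited factors. Mki67, Top2a, Ccna2 and Ccnd2 stayed above 0 and Cdk1 below 0 under every scaling tried. Ccna2 was not called by limma with TMM factors (0.42, adjusted p = 0.056, with 37.1% of genes called), by edgeR's quasi-likelihood test on the recovered reads (adjusted p = 0.057, with 37.3% of genes called) or by DESeq2 (0.165, with 39.5%). All 3 called Ccnd2, Top2a, Mki67 and Cdk1. With array quality weights, which called 50.5% of genes, the 5 calls stood and Mcm2 fell by 0.56 (adjusted p = 0.017).

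Leaving out single libraries moved the weaker rises. Ccnd2, Top2a and Cdk1 were called in all 6 such fits. Of all genes, limma called 27.2%, 29.4% and 31.2% without sham replicates 1, 2 and 3, and 30.1%, 32.5% and 25.7% without nano-TiO2 replicates 1, 2 and 3. Mki67 was not called without nano-TiO2 replicate 3 (0.84, limma's adjusted p = 0.099), without sham replicate 1 (0.66, 0.082), without nano-TiO2 replicate 1 (0.87, 0.070) or without sham replicate 3 (0.99, 0.051). Ccna2 was not called without sham replicate 2 (0.40, 0.104), without nano-TiO2 replicate 3 (0.47, 0.089), without nano-TiO2 replicate 1 (0.41, 0.087) or without sham replicate 3 (0.46, 0.065).

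**Figure D4:**
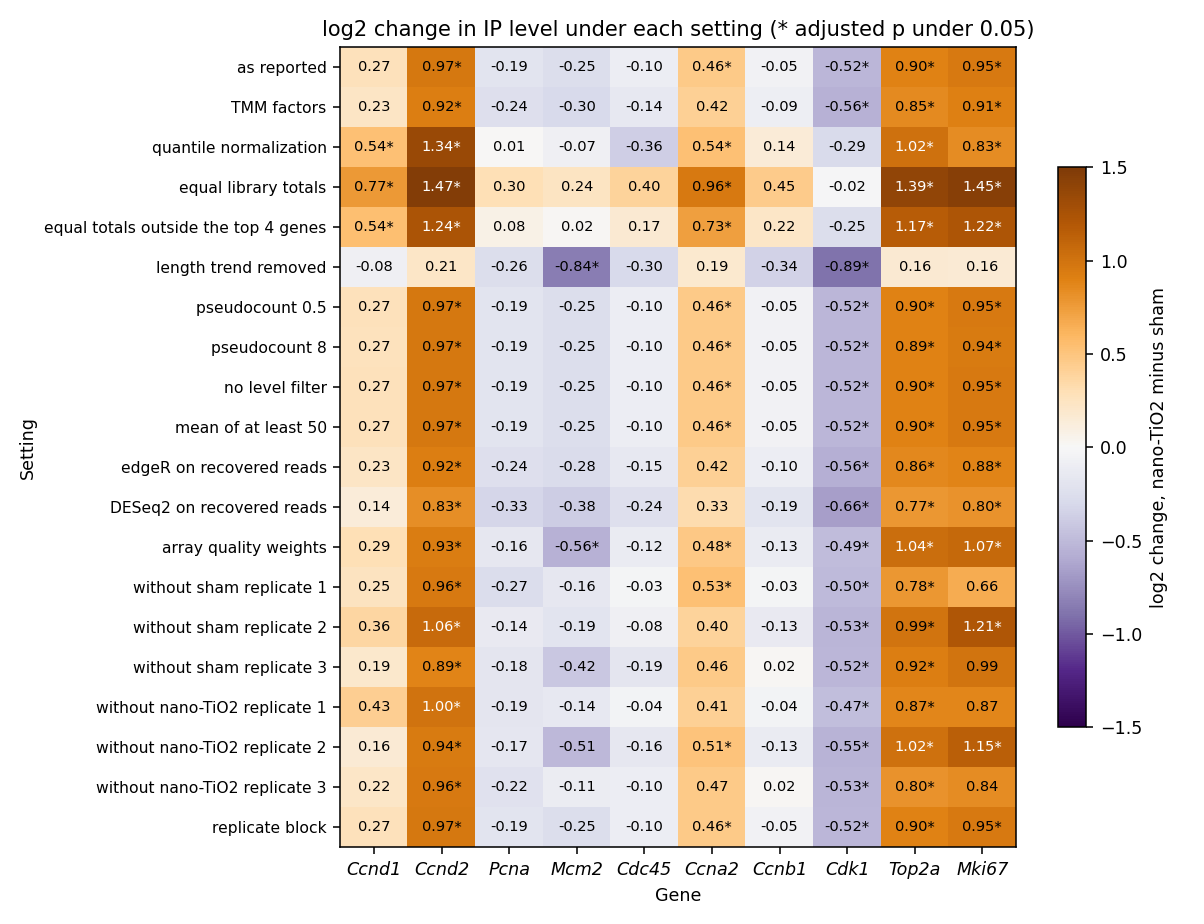
Change in IP level (log2, nano-TiO2 minus sham, 3 libraries per group unless one is left out) of each gene under each setting, with a star where the adjusted p was under 0.05. Ccnd2 and Top2a carry a star in every row but the one with the length trend removed, and Cdk1 in every row but the quantile and both equal-total scalings.

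The deposited adjusted table holds whole numbers, taken here as the normalized values divided by 1 factor per gene and library and rounded. The factor was computed from sums per gene, and whether it is the same in every window was not tested. What rounding does to genes with few reads per window was not tested either, and no source used here gives the origin of the factor. On this scale none of the 10 genes was called by limma, and 0% of all 19361 genes tested were; at an unadjusted p under 0.05 there were 4 of the 10 (Ccnd1, Ccnd2, Mcm2 and Top2a) and 3592 of all. The changes lay between 0.02 and 0.35, all above 0, with a median of 0.25 against 0.17 over all genes. With library medians centred, 6 of the 10 were above 0, and with the trend on windows removed, 5. The groups did not overlap for Ccnd1, Mcm2, Cdc45 and Ccna2, 4 of the 10, against 22.4% of all genes.

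The lower level of Cdk1 in the normalized table was not seen in the adjusted one. Its adjusted level was 2888, 2755 and 2700 in sham and 2850, 2841 and 2769 after nano-TiO2, a change of 0.02 ± 0.08 (limma's adjusted p = 0.911). The adjusted groups lay on top of each other, where the normalized ones did not meet. Ccnd2 measured 4609, 5732 and 5034 in sham and 5703, 6552 and 6253 after nano-TiO2, with sham replicate 2 inside the nano-TiO2 range and a change of 0.27 ± 0.10 (adjusted p = 0.210). Mcm2, below 0 in the normalized table, measured 2093, 2264 and 1873 in sham and 2599, 2661 and 2473 after nano-TiO2. These groups did not overlap, with a change of 0.32 ± 0.10 (adjusted p = 0.183).

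None of the other adjusted levels passed the test. Mki67 measured 488, 840 and 641 in sham and 685, 878 and 899 after nano-TiO2, a change of 0.35 ± 0.19 (adjusted p = 0.347), and Top2a 1375, 1809 and 1475 against 1740.0, 2067 and 2018, a change of 0.33 ± 0.12 (adjusted p = 0.219). For both, sham replicate 2 was the highest sham library and lay inside the nano-TiO2 range. Ccnd1 went from 2924 ± 353 to 3435 ± 87.1, Cdc45 from 376 ± 34.3 to 456 ± 33.9 and Ccna2 from 1328 ± 49.2 to 1491 ± 59.1 (SD, n = 3 each), without overlap. Ccnb1 went from 2142 ± 225 to 2367 ± 31.6 and Pcna from 2407 ± 63.3 to 2454 ± 35.6, with overlap. Their adjusted p-values lay between 0.240 for Ccnd1 and 0.875 for Pcna.

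The count on this scale moved with the libraries and the weights used. Without sham replicate 2, limma called 4 of the 10, all higher after nano-TiO2, and 9.7% of all genes. These were Top2a (0.44, adjusted p = 0.036), Mcm2 (0.38, 0.035), Ccnd2 (0.35, 0.036) and Ccnd1 (0.33, 0.036). With any other single library left out, limma called 0 of the 10 and 0 of all genes. With all libraries and same-numbered ones as a block, 0 were called, with limma's adjusted p at 0.052 for Ccnd2 and 0.056 for Mcm2. Array quality weights gave 0.368 to sham replicate 2 and 4.46 to nano-TiO2 replicate 3, and called 6 of the 10 and 25.9% of all genes. Sham replicate 2 was also the library in which the 4 most-read genes took the largest share, 35.2% of reads. Whether that share has a part in the count was not tested.

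The factor itself, normalized over adjusted sum, is built from both tables and is no separate measurement. Ccnd2 had factors of 0.829, 0.769 and 0.692 in sham and 1.27, 1.20 and 1.23 after nano-TiO2, and its factor rose by 0.70 ± 0.15 (log2, limma's adjusted p = 0.031). Cdk1 had factors of 1.17, 1.17 and 1.21 in sham and 0.759, 0.841 and 0.847 after nano-TiO2, and its factor fell by 0.54 ± 0.14 (adjusted p = 0.033). So 1 of the 10 rose and 1 fell, against 10.3% and 13.1% of 16332 genes tested. The groups did not overlap for 6 of the 10, against 45.1% of all genes. The factor of Top2a, at 0.57 ± 0.18, missed the threshold (adjusted p = 0.0505), and those of Mcm2 (-0.57 ± 0.22, 0.082), Cdc45 (-0.38 ± 0.16, 0.106) and Mki67 (0.61 ± 0.25, 0.093) did as well. With library medians centred, which called 17% of all genes, the factor of Cdk1 was not called (-0.46, adjusted p = 0.063), while those of Ccnd2 and Top2a (0.64, 0.042) were. With the trend on windows per gene removed, which called 6.2% of all genes, the factor of Ccnd2 was at 0.26 and not called (0.266), and that of Cdk1 was. Neither the factor of Ccnd2 nor that of Cdk1 was called when sham replicate 2 or nano-TiO2 replicate 1 or 3 was left out; limma then called 0% of all genes, with 4995 to 5499 genes at an unadjusted p under 0.05. Ccnd2 alone was called without sham replicate 1 or 3, where 4.16% and 18.4% of all genes were. Without nano-TiO2 replicate 2, 5 of the 10 and 19.3% of all genes were called.

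Along the genes, 676 windows of the 10 genes had a mean of at least 10 and were tested one by one. Of these 85 rose and 5 fell, and of all 250317 windows tested 3.88% rose and 7.32% fell. Ccnd2 held 80 of the 85 rises, out of 138 windows tested. The called windows started between 335 and 9335 nucleotides along the gene. Of its 97 tested windows with a mean of at least 10 in both groups, 97 were higher after nano-TiO2 and 61 were called. The other 19 called windows reached the filter only through nano-TiO2. Over all 138 tested windows, including those that reached the filter through 1 group, 138 were higher, with a median change of 0.98. At a mean of at least 1, 252 of 269 windows of Ccnd2 were higher. Top2a had 4 of 54 windows called and Ccna2 1 of 77, all higher and all reaching the filter only through nano-TiO2, where they had to be high. The 5 windows that fell were all in Cdk1, out of 47 tested, and 47 of those 47 were lower. Of the 47, 46 had a mean of at least 10 in both groups, and 0 of these were higher. The 5 that fell were among them. None of 49 windows of Cdk1 was called when windows with a mean of at least 1 were tested, where 1.29% of all windows fell. At a mean of at least 50, 15 of 35 fell, against 34.8% of all windows. Neighbouring windows lie closer together than the RNA fragments are long, so these counts are not independent.

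**Figure D5:**
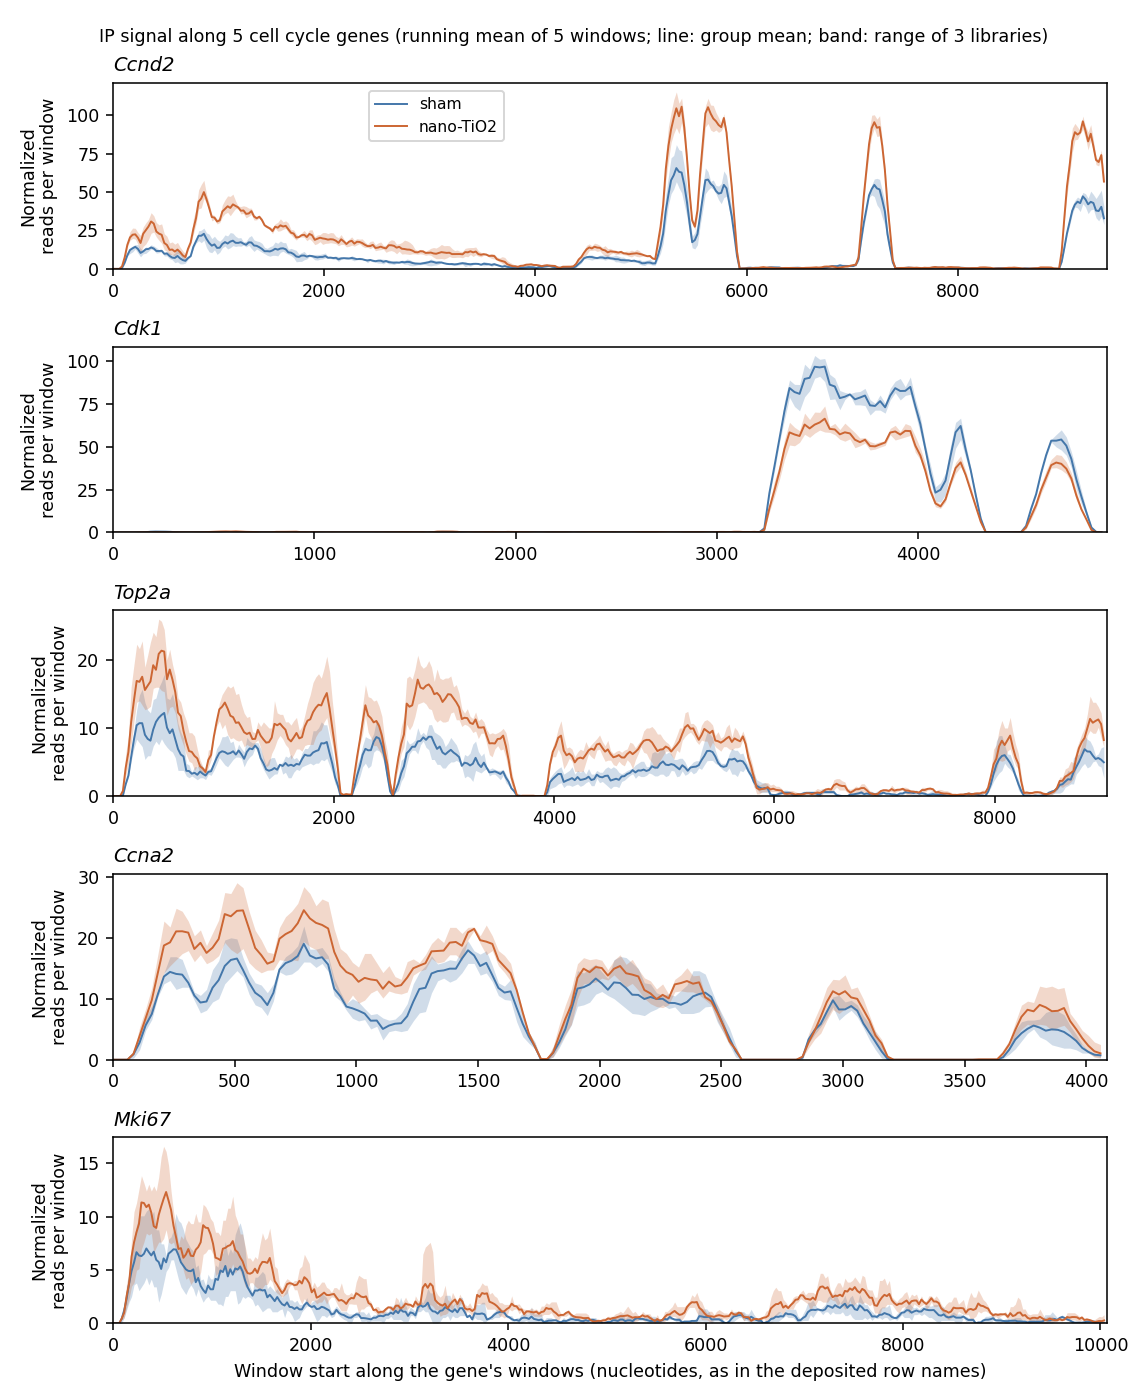
IP signal along Ccnd2, Cdk1, Top2a, Ccna2 and Mki67, as normalized reads per window against the window start in nucleotides along the gene's windows; lines are group means after a running mean of 5 windows and bands span the 3 libraries. In Ccnd2 the nano-TiO2 line runs above the sham line at every hump, and in Cdk1 below it.

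The signal of the 10 genes was uneven along their windows. The window with the most signal in Ccnd2 started at 5285, with 68.4, 92.0 and 64.9 normalized reads in sham and 107, 115 and 130.5 after nano-TiO2. That peak was 7.19 ± 0.584 times the gene's mean window in sham and 5.81 ± 0.487 times after nano-TiO2, without overlap. In Cdk1, the window at 3485 held 112, 138 and 124 in sham and 72.5, 83.6 and 111 after nano-TiO2, 7.50 ± 0.956 and 7.61 ± 1.50 times the gene's mean. The peak of Ccnd2 was 1.57 times as high after nano-TiO2, against 1.95 times for the sum of the gene, and did not pass the test by itself. The sham peak of Cdk1 was 1.40 times that of nano-TiO2, against 1.43 times for the sum of the gene, and did not pass either. In Mcm2, the window at 307 held 59.4, 62.4 and 52.7 in sham and 42.4, 40.5 and 41.1 after nano-TiO2. This peak did not overlap between groups, although the gene's sum did, and the window did not pass the test by itself. The peaks started at 414 in Top2a, 337 in Mki67, 834 in Ccna2, 1168 in Ccnb1, 2785 in Ccnd1, 376 in Pcna and 382 in Cdc45. Their groups overlapped except in Mki67, where the window held 5.40, 12.0 and 2.70 in sham and 20.1, 13.2 and 14.5 after nano-TiO2. How many of all genes have peaks without overlap was not computed, so nothing particular to these peaks is read from it.

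Mki67 had 64.1% ± 1.85 of its signal in the first 25% of its windows in sham and 57.5% ± 3.88 after nano-TiO2, without overlap. Mki67 also had a read in 44.4% ± 5.51 of its windows in sham and in 71.1% ± 3.13 after nano-TiO2. Over all windows of the table the share with a read was also higher after nano-TiO2, at 26.8% ± 2.09 against 20.8% ± 1.45 in sham, without overlap, and its part in the value for Mki67 was not tested. In Ccnd2, the first 25% of windows went from 26.7% ± 0.846 of the signal to 30.0% ± 1.70, and the 25% after the middle from 36.5% ± 1.28 to 32.0% ± 1.25, both without overlap. Cdk1 held 57.1% ± 2.71 of its signal in the last 25% of windows in sham and 56.9% ± 2.58 after nano-TiO2, with overlap. In the first 25% it held 0.149% ± 0.0330 in sham and 0.436% ± 0.0385 after nano-TiO2, without overlap. Those first windows held few reads, as all windows of Cdk1 together held 1939 to 3759 reads per library. The part of the table-wide share of windows with a read was not tested for Cdk1 either. Mcm2 held 70.9% ± 3.80 and 67.4% ± 6.19 in the first 25%, with overlap. Groups also did not overlap in the 25% before the middle for Top2a, Ccnb1, Ccnd2 and Cdk1, and in the 25% after the middle for Ccna2 and Mki67. The share of all genes without overlap was not computed for these parts, so nothing particular to these genes is read from them. Which end of the windows is the 3′ end was not established, and without input reads an IP peak and uneven coverage cannot be told apart.

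A window can change more or less than the rest of its gene, and limma's diffSplice called 1 of 675 tested windows of these genes, against 0.0465% of all windows tested. It was the Ccnd2 window starting at 2660, with 5.40, 2.19 and 1.35 normalized reads in sham and 25.7, 19.0 and 15.3 after nano-TiO2. It changed by 1.48 (log2) more than the gene (adjusted p = 0.018). The window reached the mean of 10 only through the nano-TiO2 libraries, where it is high, so the call is given as a description and supports nothing. It was lost when nano-TiO2 replicate 1, nano-TiO2 replicate 2, sham replicate 2 or sham replicate 3 was left out, with a pseudocount of 8, and when windows with a mean of at least 1 or of at least 50 were tested. Tested per gene, with the p-values of each gene's windows combined by the Simes method, none of the 10 genes passed: Ccnd2 had an adjusted p of 0.083, the next genes 1.00, and 0.839% of 7983 genes passed. Cdc45 had 1 window with enough signal and could not be tested this way.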

How the data were processed

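Anti-m6A IP libraries of pooled fetal hearts, 3 sham and 3 nano-TiO2, were grouped by their titles. The authors deposited a normalized signal per window, which was checked: 100% of values were whole multiples of 1 step per library (tolerance 0.0001), so whole reads were recovered. Adjusted values were deposited as whole-number scores, and the factor was computed here as normalized over adjusted. The other table repeated the normalized one and was not used. The submitters' processing notes name GRCm39, DESeq2 1.34.0, Salmon 1.5.2 and HISAT2 2.2.1 without a role, and no source used here says how windows were counted.

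Windows were summed per gene and tested, two-sided, with limma 3.58.1 (R 4.3.3) on log2(value + 1), which understates changes of low genes, at means of at least 10, and for the factor on log2 ratios where both sums reached 10 in every library. Alternatives used edgeR 4.0.16 and DESeq2 1.42.0 on recovered reads. Python 3.11.15, pandas 2.3.3, NumPy 2.4.6, SciPy 1.17.1 and matplotlib 3.10.9 did the rest. The tests were tested on simulated data, which drew windows independently of their neighbours and so could not cover windows that share fragments. No result above rests on it. Genes and lists were chosen with earlier results of these data known. All 10 genes were named, with each gene's highest window and each window past the within-gene test. Of 48505 identifiers, 0 matched a symbol in the tables given. Same-numbered libraries were not treated as pairs. Replicates differed by more than counting noise (chi-square per degree of freedom of at least 20.5 within groups), so none was taken as a duplicate.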

Additional observations from a re-analysis of the deposited data

How the results depend on the processing

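Of the 10 genes, the 5 calls in IP level went down to 2 with the trend on windows per gene removed, and the calls in the factor from 2 to 1, where Ccnd2 was lost. Array quality weights called 6 genes in the adjusted level and 6 in the factor, where 44.3% of all genes were called. Leaving out 1 library at a time gave 3 to 5 calls in IP level, 0 to 4 in the adjusted level and 0 to 5 in the factor. A variance trend on the adjusted level, chosen after seeing the data, called 3 factors, adding Top2a, and 27% of all genes. Of 676 windows, 90 were called, 51 at a mean of at least 50 (of 94 tested), and 32 to 77 with 1 library left out, against 11.2%, 39.1% and 4.84% to 8.65% of all windows tested. The within-gene test, with 1 call, gave 2 others at a mean of at least 1 (a higher window of Cdk1 and a lower one of Ccnd2), 0 at 50, 0 with pseudocount 8 and 0 to 2 with 1 library left out. Of all windows, it then called 648 of 1023150, 10 of 56749, 55 of 249423 and 87 to 168 of 249423. The causes of these moves were not tested.

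Signs that turned were of changes not called in the main setting, and no turned value was itself called. Ccnd1, at -0.080 in IP level with the trend on windows removed, was called above 0 under 3 scalings (0.54 to 0.77). Mcm2, above 0 in IP level with equal totals, was called below 0 with the trend removed (-0.84) and with weights (-0.56). Adjusted Ccnd2, below 0 with the trend removed, was called at 0.35 without sham replicate 2 and at 0.36 with weights. In IP level, Ccnb1 was at 0.14 with quantile normalization, 0.45 with equal library totals and 0.22 with equal totals outside the 4 most-read genes, and at -0.13 to 0.023 with 1 library left out. For the same 3 scalings Pcna was at 0.0059, 0.30 and 0.077. With equal totals and equal totals outside the 4 genes, Mcm2 was at 0.24 and 0.016 and Cdc45 at 0.40 and 0.17. In the adjusted level with library medians centred, Ccnb1 was at -0.050, Ccna2 at -0.032, Cdk1 at -0.18 and Pcna at -0.17. With the trend removed they were at -0.045, -0.021, -0.20 and -0.079, and Ccnd2 at -0.023. With quantile normalization Cdk1 was at -0.047 and Pcna at -0.039, and with weights Cdk1 was at -0.018. With 1 library left out, Cdk1 was at -0.0005 to 0.048. The factor of Ccnd1 was at -0.064 with the trend removed and -0.056 to 0.17 with 1 library left out.

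In IP level, 154 of 190 single values for these genes kept their direction and side of the threshold, as did 127 of 150 in the adjusted level and 86 of 110 in the factor. Deviations of same-numbered libraries correlated at -0.37, 0.18 and 0.02, and 2 of 6 libraries matched their own number best, so the numbers were not taken as pairs. With the replicate block, 5 genes were called in IP level, 0 in the adjusted level, 0 in the factor and 91 windows. Over the whole table, the block called 6415 of 18566 genes in IP level, 0 in the adjusted level, 0 in the factor and 12.7% of windows. Depth limits the window tests: Mki67 had 2 and Cdc45 1 window with enough signal to test.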
